A study of Homo sapiens with 20 samples.

Results

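The proteins that join the NOTCH intracellular domain in the nucleus, and those that mark it for destruction, were followed at the RNA level in T-ALL (acute leukemia of T-cell precursors) cell lines with and without a gamma-secretase inhibitor. The genes were RBPJ, MAML1, SPEN, EP300, CREBBP, KAT2B, FBXW7, ITCH and NUMB, 9 in number. Probe sets were taken where the platform's annotation named 1 of these genes and no other, which gave 14 probe sets of 8 genes among 22215 probe sets that are no controls. NUMB had 2 probe sets, both annotated to a second gene as well, so it has no value here. All 14 are described, and 13 of them, with at least 1 for each of the 8 genes, were bright enough for the tests.

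The study set T-ALL lines that all carry activating mutations of NOTCH1, per its description, against themselves. The lines were CUTLL1, KOPTK1, PF382, DND41, RPMI8402, MOLT3, HPB-ALL, CCRF-CEM, P12-ICHIKAWA and ALL-SIL. Each line gave 1 Affymetrix array after the vehicle DMSO and 1 after the inhibitor CompE at 100 nM, both at 72 h, so 20 arrays in 10 pairs. Each line is 1 established culture, and the labels do not say whether its pair of arrays came from separate cultures, so errors measure the spread between these 10 lines.

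Gamma-secretase cuts NOTCH receptors in the membrane and frees the intracellular domain, which moves to the nucleus. There it binds RBPJ, the DNA-binding protein of the pathway, displaces corepressors such as SPEN and is locked in place by MAML1, which brings in the acetyltransferases EP300 and CREBBP; KAT2B is a further acetyltransferase found with the complex. The active domain is short-lived: FBXW7, the substrate receptor of an SCF ubiquitin ligase, recognises it once phosphorylated, while ITCH, a HECT-type ubiquitin ligase, and the endocytic adaptor NUMB lower the receptor earlier on its route. In T-ALL, some NOTCH1 mutations, and loss of FBXW7 function, keep the domain active for longer.

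RBPJ recognises a short DNA word, and 3 promoters are shown to place that word in the genes described: HES1, a target of the complex that fell under CompE, the 1 start of RBPJ that holds the word, and KAT2B, the gene closest to the test's threshold. The 250 bases before each start are given 5′ to 3′ on the gene's strand, from RefSeq's promoters on GRCh38.p14, and capitals mark GTGGGAA or its complement TTCCCAC.
HES1 (chr3:194135898-194136147, + strand): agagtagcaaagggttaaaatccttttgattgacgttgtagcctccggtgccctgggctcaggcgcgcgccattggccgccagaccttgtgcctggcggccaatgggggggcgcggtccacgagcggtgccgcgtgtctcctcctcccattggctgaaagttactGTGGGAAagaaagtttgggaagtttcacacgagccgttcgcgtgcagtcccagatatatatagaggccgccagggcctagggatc
RBPJ (chr4:26319496-26319745, + strand): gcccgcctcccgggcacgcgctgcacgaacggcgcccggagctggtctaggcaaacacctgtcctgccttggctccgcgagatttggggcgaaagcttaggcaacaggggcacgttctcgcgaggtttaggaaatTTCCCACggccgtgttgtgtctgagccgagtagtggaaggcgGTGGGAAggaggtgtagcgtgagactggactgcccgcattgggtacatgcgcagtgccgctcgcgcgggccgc
KAT2B (chr3:20040196-20040445, + strand): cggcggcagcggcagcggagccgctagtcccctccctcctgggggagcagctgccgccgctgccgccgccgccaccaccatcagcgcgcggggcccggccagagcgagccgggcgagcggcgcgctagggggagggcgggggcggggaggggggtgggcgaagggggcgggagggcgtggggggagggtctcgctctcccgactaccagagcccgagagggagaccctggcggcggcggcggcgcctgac

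HES1 held the word 1 time, beginning 85 bases before the start. RBPJ held it 2 times at this start, 1 on each strand, beginning 115 and 73 bases before it. All 9 genes matched RefSeq's table, with 17 promoters, among them 5 of RBPJ, 2 of which overlap, and 4 of FBXW7. GTGGGAA on either strand was in 1 of the 17, or 5.88%, beside 5.43% of all 35116 promoters of the same length. The E-box CACGTG, which reads the same on both strands and does not overlap the first word, was in 0 of the 17 and in 6.34% of all. A match is a word in a window, not a binding site, and its absence says only that these letters are not there.

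The arrays fell into 10 pairs: over the tested probe sets each CompE array was nearest, by correlation, to its line's DMSO array. Median signals lay between 54.7 and 74.8. The ACTB ratio (signal of its 3' over its 5' probe set, a sign of RNA quality) was higher in CompE in 9 lines, from 3.32 to 9.76 in KOPTK1, where it was highest in both conditions. Of 8 T-cell markers, 7 were measured and all 7 passed the filter on dim probe sets, with a summed signal of 8338 at the lowest in DMSO; all 5 myeloid markers lay under it. Of 4 measured B-cell markers 2 passed, and their summed signal reached 2576 in DMSO in 1 line and 124 in the lowest. For CCRF-CEM, MOLT3 and P12-ICHIKAWA the label of the DMSO array names another medium than that of the CompE array, possibly by error. A bulk array cannot tell fewer cells with a transcript from less of it per cell.

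As a check of the treatment, HES1, a repressor gene switched on by NOTCH, went from a mean signal of 812 to 324 and fell by 1.71 ± 0.307 in log2 units (SE over 10 pairs; limma adjusted p = 0.0116). These values are of its brighter probe set, which was lower in all 10 lines. The second tested one was at -0.63 ± 0.204 (adjusted p = 0.0827) and lower in 8. The mean of all the gene's probe sets takes in what lay under the filter and was not tested alone. It showed a smaller fall than the brighter one, at -0.68 (limma adjusted p = 0.0474). NOTCH1 itself, whose protein rather than RNA is the drug's object, was at 0.03 ± 0.125 (adjusted p = 0.922); it lay at -0.045 after each array was centred on its median. These values are on log2(signal + 16), as are all changes below, and MAS5 signals are in arbitrary units that cannot be compared between probe sets.

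The RNA of the nuclear cofactors and turnover factors showed no change that passed the test in either direction. Of 13 probe sets tested, 0 were called (limma, Benjamini-Hochberg over 13329 probe sets at 0.05), where 4.48% of all tested probe sets were, 2.09% higher and 2.39% lower in CompE. At an unadjusted p under 0.05 were 4 of the 13 (those of KAT2B, MAML1 and FBXW7 and 1 of EP300), beside 23.4% of all tested probe sets. The number was 3 with exact sign-flip tests (beside 2940 of all 13329) and 2 with the ACTB ratio as a covariate (beside 2936). It was 2 without DND41 (beside 2594) and 1 with median centring (beside 2942). The median change of the 13 was 0.09 and 10 of them lay above 0; over all tested probe sets the median was 0.03 and 55.3% lay above 0. With median centring 8 of the 13 lay above 0.

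**Figure D1:**
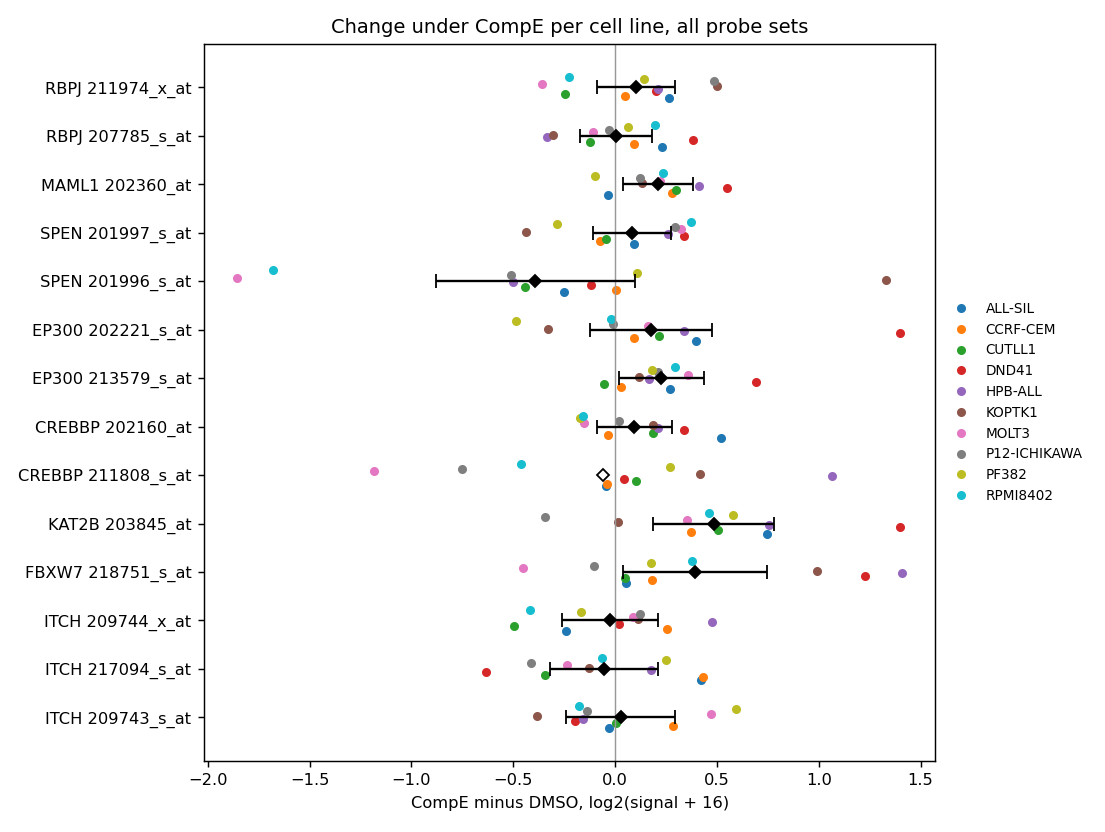
Change under CompE, as the difference in log2(signal + 16), for the 14 probe sets. Coloured points are the 10 cell lines, black diamonds the mean with its 95% confidence interval from limma, and the open diamond the mean of the dim CREBBP probe set, which was not tested; KAT2B has the highest mean, at 0.48, and DND41 is its highest point, at 1.40.

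RBPJ was measured by 2 probe sets. By the brighter, 211974_x_at, its signal in DMSO ran from 1114 in ALL-SIL to 2424 in RPMI8402 with a median of 1858, and in CompE from 1341 to 2854 with a median of 1824. The groups overlapped almost fully, and 7 lines were higher in CompE. The change was 0.10 ± 0.090 (SE over 10 pairs; limma adjusted p = 0.532), with a 95% interval of -0.09 to 0.29, and it was at -0.02 with the ACTB ratio as a covariate, 0.057 without KOPTK1, 0.059 without P12-ICHIKAWA and 0.15 without MOLT3. The second probe set, 207785_s_at, ran from 463 to 1350 in DMSO (median 949) and from 546 to 1551 in CompE (median 933). Its change was 0.01 ± 0.083 (adjusted p = 0.974), with 5 lines on each side, and its sign turned with median centring (-0.07) and in fits that left out 1 line. ALL-SIL was the lowest line by both probe sets. The suffix of the brighter one marks probes that may also bind other transcripts, so the level it gives is less certain.

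SPEN, a very large RNA-binding protein that recruits histone deacetylases to RBPJ, had, among the 13 tested probe sets, the smallest span between lines by one of its probe sets and the widest spread of changes by the other. By 201997_s_at its signal in DMSO ran from 947 to 1308 with a median of 1058, and in CompE from 962 to 1587 with a median of 1219. The change was 0.08 ± 0.091 (adjusted p = 0.618), with 6 lines higher. It was 0.14 without KOPTK1, 0.052 without RPMI8402, 0.012 with median centring and 0.16 with the ACTB covariate. The dimmer 201996_s_at ran from 60.1 to 372 in DMSO (median 143) and from 49.9 to 214 in CompE (median 89.3). It was lower in 7 lines, with log2 changes of -1.85 in MOLT3 and -1.68 in RPMI8402, and it was higher by 1.33 in KOPTK1, where the ACTB ratio rose most. The mean was -0.39 ± 0.231 (adjusted p = 0.322), or -0.58 without KOPTK1 (adjusted p = 0.0594), -0.23 without MOLT3, -0.25 without RPMI8402 and -0.22 without CCRF-CEM, MOLT3 and P12-ICHIKAWA. With the ACTB ratio as a covariate it was -0.79 (adjusted p = 0.0692). Over the 10 lines the changes of both probe sets ran against each other (r = -0.80, a description over points that share arrays). Their mean difference of 0.48 ± 1.14 (SD) did not pass an exact sign-flip test (p = 0.223, 0.838 after Benjamini-Hochberg over 5 pairs of probe sets).

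MAML1, the coactivator that clamps the NOTCH domain onto RBPJ, had 1 probe set. Its signal ran from 247 in CCRF-CEM to 945 in KOPTK1 in DMSO (median 580) and from 304 to 1037 in the same lines in CompE (median 706). It was higher in CompE in 8 lines, most in DND41, by 0.55, and lower in PF382 and ALL-SIL, by at most 0.10. The change was 0.21 ± 0.081, or 1.16-fold, with a 95% interval of 0.04 to 0.38 (limma adjusted p = 0.134). It was 0.14 with median centring (limma unadjusted p = 0.141) and 0.19 with the ACTB ratio as a covariate (unadjusted p = 0.0651). With quantile normalization it was 0.24 (unadjusted p = 0.0115). The span between the lowest and the highest line was 1.79 in the mean of both arrays.

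EP300, an acetyltransferase that opens chromatin at enhancers, had 2 probe sets of which neither passed. By 202221_s_at its signal ran from 141 in DND41 to 517 in HPB-ALL in DMSO (median 294) and from 229 to 658 in CompE (median 334). DND41 rose from 141 to 398 by this probe set, a log2 change of 1.40, and the mean change of 0.18 ± 0.142 (adjusted p = 0.482) was 0.04 without that line. By 213579_s_at the signal ran from 92.0 to 196 in DMSO (median 150) and from 94.3 to 240 in CompE (median 180). Here 9 lines were higher in CompE, DND41 again most, by 0.69. The mean was 0.23 ± 0.098 with a 95% interval of 0.02 to 0.43 (adjusted p = 0.179). It was 0.17 without DND41 (limma unadjusted p = 0.0835), 0.15 with median centring (unadjusted p = 0.137) and 0.26 without CUTLL1 (unadjusted p = 0.0281). Over the lines the changes by both probe sets had r = 0.69 (n = 10), or 0.044 without DND41. They went opposite ways in PF382, KOPTK1, CUTLL1, P12-ICHIKAWA and RPMI8402. In P12-ICHIKAWA and RPMI8402 the change by 202221_s_at was small, at -0.0088 and -0.021, against 0.21 and 0.29 by 213579_s_at.

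CREBBP, the close relative of EP300, had 1 bright probe set, 202160_at. Its signal ran from 379 in ALL-SIL to 1042 in CUTLL1 in DMSO (median 576) and from 408 in PF382 to 1188 in CUTLL1 in CompE (median 571). With 6 lines higher and the medians almost equal, the change was 0.09 ± 0.087 (adjusted p = 0.548), with a 95% interval of -0.09 to 0.28. It was 0.047 without ALL-SIL, 0.16 without CCRF-CEM, MOLT3 and P12-ICHIKAWA, 0.062 with the ACTB ratio as a covariate, 0.023 with median centring and 0.018 as the mean of both probe sets. The other probe set, 211808_s_at, was dim, with signals from 5.005 to 60.6 in DMSO and 10.1 to 66.3 in CompE, and was not tested.

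KAT2B, also known as PCAF, came closest to the threshold. Its signal ran from 41.8 in RPMI8402 to 272 in CUTLL1 in DMSO (median 128) and from 44.4 in P12-ICHIKAWA to 395 in DND41 in CompE (median 155). It was higher in CompE in 9 lines: it went from 140 to 395 in DND41, from 208 to 360 in ALL-SIL, from 200 to 348 in HPB-ALL and from 272 to 392 in CUTLL1. KOPTK1 stood still at 152 and 154, and P12-ICHIKAWA went the other way, from 60.8 to 44.4. The change was 0.48 ± 0.140, or 1.40-fold with a 95% interval of 1.14 to 1.72 (limma adjusted p = 0.0593), the 732nd smallest p of 13329. It passed when 1 probe set a gene was tested (7695 genes, adjusted p = 0.0465), with the mean of probe sets a gene (0.0484), with a stricter filter (0.0466), without KOPTK1 (0.54, adjusted p = 0.0257) and without P12-ICHIKAWA (0.58, adjusted p = 0.0284). It did not pass in the other alternatives. Adjusted p was 0.0949 with no filter, 0.0935 with median centring, 0.083 with quantile normalization and 0.129 with lines as a random block. With the ACTB ratio as a covariate KAT2B was at 0.58 (adjusted p = 0.0685). Without DND41, its strongest line, it was at 0.38 (adjusted p = 0.123), and without HPB-ALL at 0.45 (adjusted p = 0.139). Of the fits that left out 1 line, 2 called it. Its exact sign-flip p was 0.00586 before and 0.0888 after adjustment.

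**Figure D2:**
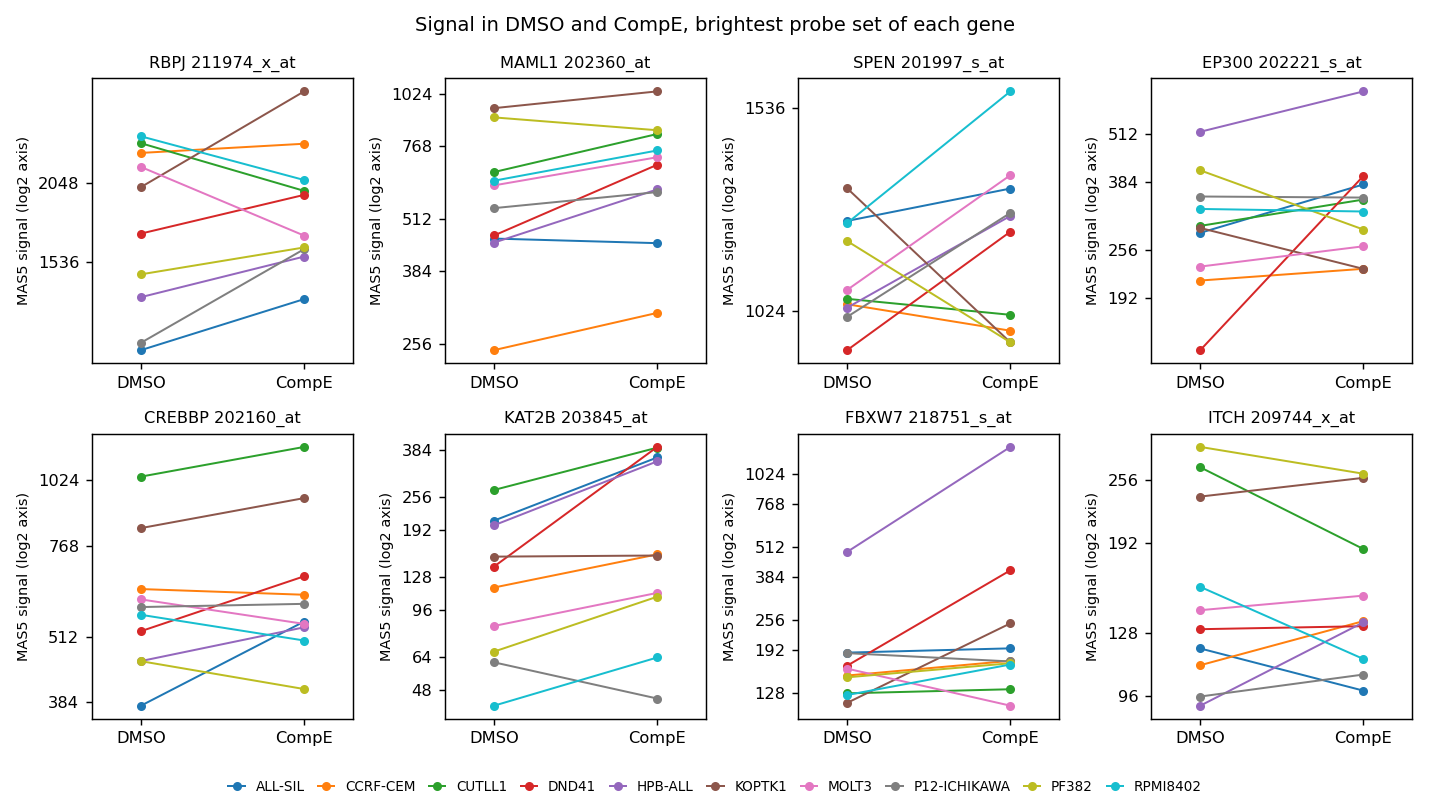
MAS5 signal in DMSO and in CompE, on log2 axes, for the brightest probe set of each of the 8 genes; a line joins the pair of arrays of 1 cell line. KAT2B was higher in CompE in 9 of 10 lines, and FBXW7 lay at 487 and 1321 in HPB-ALL, above every other line in each condition.

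FBXW7 had 1 probe set, 218751_s_at, and 3 lines moved far more than the other 7. Its signal in DMSO ran from 116 in KOPTK1 to 487 in HPB-ALL with a median of 156, and in CompE from 113 in MOLT3 to 1321 in HPB-ALL with a median of 173. HPB-ALL went from 487 to 1321, DND41 from 165 to 409 and KOPTK1 from 116 to 247, log2 changes of 1.41, 1.23 and 0.99. The other 7 lines lay between -0.45 in MOLT3 and 0.38 in RPMI8402. The mean was 0.39 ± 0.166, with a 95% interval of 0.04 to 0.74 (limma adjusted p = 0.171). It was 0.28 without HPB-ALL, 0.30 without DND41 and 0.32 without KOPTK1, and 0.18 with the ACTB ratio as a covariate. It was 0.49 without MOLT3 and 0.61 (adjusted p = 0.0985) without CCRF-CEM, MOLT3 and P12-ICHIKAWA, the lines with differing medium labels. KOPTK1 and DND41 had the largest rises of that ratio, by 1.56 and 0.54 on the log2 scale, and HPB-ALL had 0.33; P12-ICHIKAWA, whose FBXW7 changed by -0.10, had 0.48. Over the lines the change of FBXW7 and that of the ACTB ratio had r = 0.50 (n = 10), or 0.47 without KOPTK1. Which lines respond was not tested, since they were noticed from these values.

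ITCH had 3 probe sets, and their changes centred on 0. By the brightest, 209744_x_at, its signal ran from 92.1 to 297 in DMSO (median 136) and from 98.5 to 263 in CompE (median 135). The changes were -0.03 ± 0.112, -0.05 ± 0.125 for 217094_s_at and 0.03 ± 0.126 for 209743_s_at, with limma adjusted p from 0.833 to 0.923 and 95% intervals that together spanned -0.32 to 0.29. All 3 turned sign in some alternative. Changes of single lines did not repeat between probe sets (r = 0.14 and -0.04 against the brightest), while the levels did, at r = 0.89 and 0.85 over the 10 line means.

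**Figure D3:**
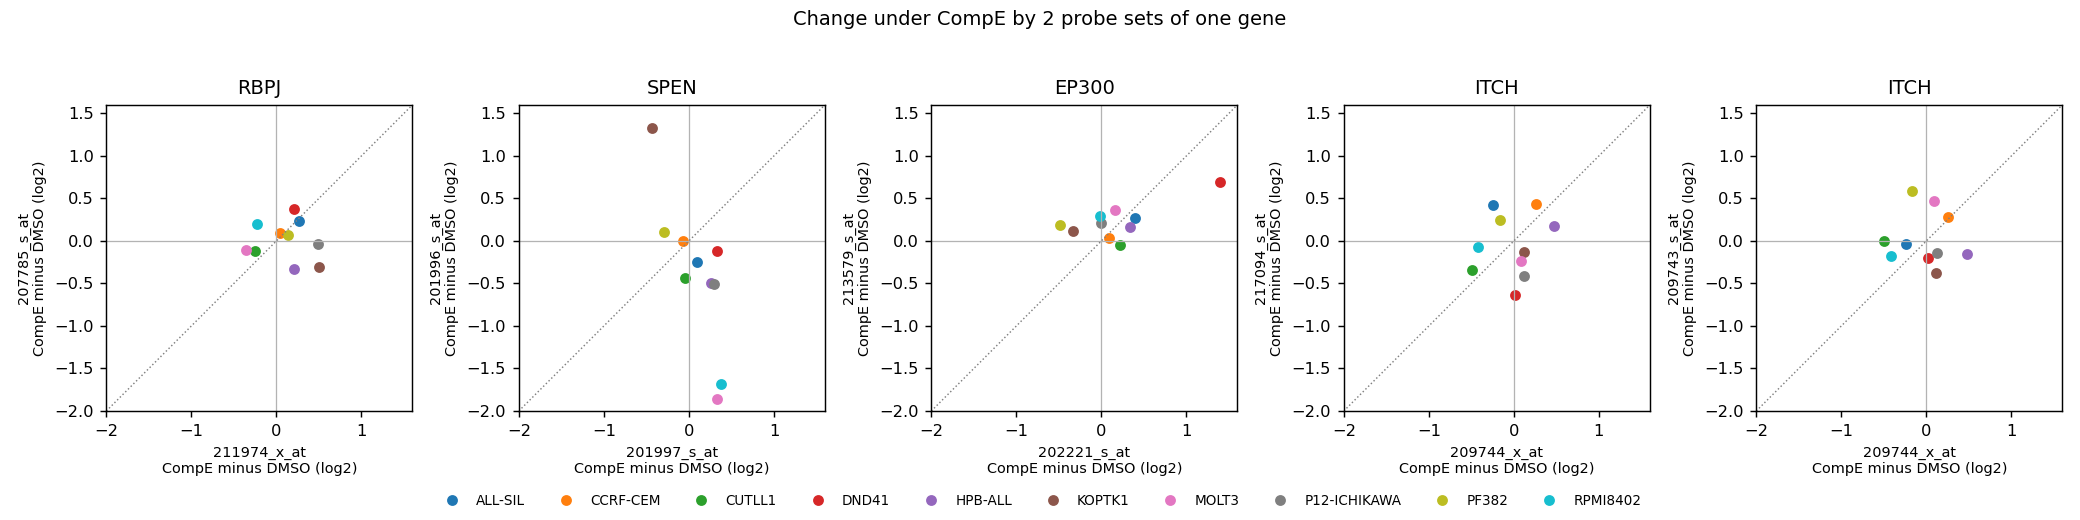
Change under CompE in log2 units by the brightest probe set (horizontal) and by another probe set of the same gene (vertical) for RBPJ, SPEN, EP300 and, in 2 panels, ITCH; points are the 10 cell lines and the dotted line marks equal change. The points of SPEN run downwards, with KOPTK1 at -0.44 and 1.33, and in EP300 DND41 lies apart from the other lines, at 1.40 and 0.69.

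None of the 5 pairs of probe sets of a gene differed in mean change beyond the spread between lines. For RBPJ, EP300 and ITCH the differences lay between -0.05 and 0.10, with exact sign-flip p from 0.477 to 0.838 and 0.838 for all 5 after adjustment. The probe sets of RBPJ had r = 0.79 in line means but -0.11 in changes.

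Levels of most of these genes differed between the lines. A test for differences between lines, in which both arrays of a line stand in for replicates, called 11 of the 13 probe sets (84.6%), as it did 73.4% of all tested probe sets; the 2 that were not called are those of SPEN (limma F test, adjusted p = 0.527 for 201997_s_at and 0.0537 for 201996_s_at). KAT2B had a span of 2.34 on the log2 scale between its lowest and its highest line (adjusted p = 1.96e-05), FBXW7 2.49 (adjusted p = 7.17e-04) and MAML1 1.79 (adjusted p = 1.94e-05). The call of FBXW7 was lost without HPB-ALL. That of EP300 by 202221_s_at (adjusted p = 0.0407) was lost without HPB-ALL, MOLT3 or CCRF-CEM, and that by 213579_s_at (adjusted p = 0.00895) without CCRF-CEM. Other settings ended that of 202221_s_at too, and brought that of SPEN 201996_s_at under the threshold, as with median centring. SPEN by 201997_s_at spanned 0.46 between lines. In 13329 tested probe sets the median SD of line means was 0.42, against 0.43 in the 13.

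**Figure D4:**
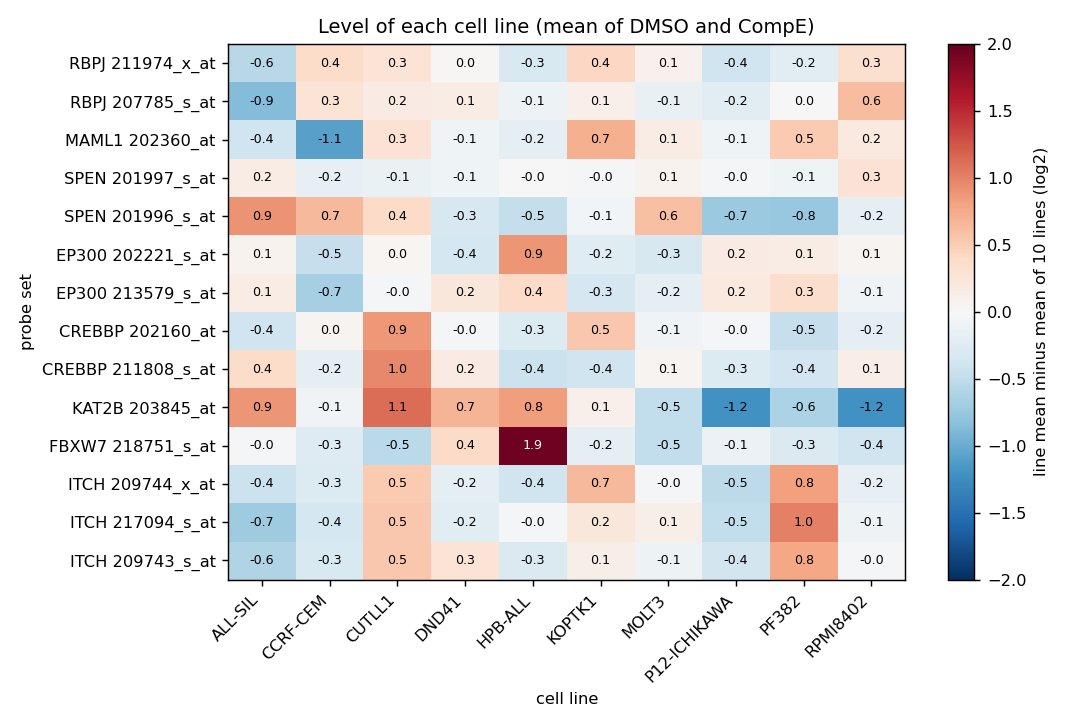
Level of each of the 10 cell lines (columns), as the mean log2(signal + 16) of its DMSO and CompE arrays minus the mean of the 10 lines, for the 14 probe sets (rows). Red is above and blue below the mean of the lines; FBXW7 in HPB-ALL is the darkest cell, and all 3 probe sets of ITCH are highest in PF382.

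Ordered by the mean of both arrays, KAT2B was highest in CUTLL1, at a signal of 327, followed by ALL-SIL at 274, HPB-ALL at 265 and DND41 at 237; neighbours among these differed by less than the residual SD of 0.33. KOPTK1 at 153 and CCRF-CEM at 135 came next, then MOLT3 at 96.5 and PF382 at 85.1. P12-ICHIKAWA and RPMI8402 were lowest, at 52.1 and 51.8. Only the steps from DND41 to KOPTK1, from CCRF-CEM to MOLT3 and from PF382 to P12-ICHIKAWA were above the residual SD. FBXW7 had 1 such step among 9, from HPB-ALL at 805 to DND41 at 262; ALL-SIL followed at 191 and the other lines lay between 179 in P12-ICHIKAWA and 130 in CUTLL1.

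MAML1 had 5 steps of 9 above its residual SD of 0.14. KOPTK1 led at 990, then PF382 at 867 and CUTLL1 at 737, with RPMI8402 and MOLT3 at 688 and 666. DND41 and P12-ICHIKAWA shared 568, HPB-ALL lay at 520, ALL-SIL at 453 and CCRF-CEM at 274. CREBBP was set apart in CUTLL1 at 1112 and KOPTK1 at 887; the other 8 lines, from CCRF-CEM at 626 to PF382 at 433, had no step between neighbours above the residual SD. ITCH was highest in PF382 by all 3 probe sets, at 279, 254 and 133, with CUTLL1 and KOPTK1 within the leading 4 lines by each.

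RBPJ spanned 0.96 by its brighter probe set, from KOPTK1 at 2399 to ALL-SIL at 1222, with 1 step above the residual SD, between DND41 at 1826 and PF382 at 1541. By the second probe set RPMI8402 led at 1447 and ALL-SIL was set apart at 503 from P12-ICHIKAWA at 809. EP300 was highest in HPB-ALL by both probe sets, at 584 and 208, and lowest in CCRF-CEM by both, at 221 and 93.1.

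Other genes of the pathway, in 8 lists, mostly did not pass either. Of 88 genes in the lists, 57 were tested by 102 probe sets; 0 probe sets were higher and 8 lower in CompE, or 7.84% against 4.48% of all. Among RBPJ's corepressor partners, 1 of 18 probe sets was lower, that of SAP30, a subunit of the SIN3 deacetylase complex, which fell by 0.33 ± 0.084 (limma adjusted p = 0.0386) and was lower in 9 lines. The suffix of this probe set, 204900_x_at, marks probes that may also bind other transcripts. The other tested probe sets of SAP30 were at -0.17 and -0.18. With the mean of all its probe sets, dim ones included, SAP30 was at -0.16 and not called (adjusted p = 0.309). Nor was it called by 204900_x_at without CUTLL1, DND41, HPB-ALL, MOLT3, P12-ICHIKAWA or RPMI8402 (adjusted p up to 0.0996). With the ACTB ratio as a covariate this probe set was at -0.27 and not called (limma adjusted p = 0.128). The list's median was 0.12. The coactivator list had 0 of 10 called, with a median of -0.05 and changes from -0.27 to 0.21; 1 were under an unadjusted p of 0.05.

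Turnover genes beyond the members also stayed under the threshold. The list of SCF-FBXW7 machinery had 0 of 11 probe sets called by limma (3 at an unadjusted p under 0.05) and a median of -0.0099. NUMB and ITCH partners and other NOTCH ubiquitin ligases had 0 of 16 (3 unadjusted) and a median of 0.04. Substrates of FBXW7 had 2 of 15 lower. MYC, the growth-driving transcription factor, fell by 1.499 ± 0.285 (limma adjusted p = 0.0156), and JUN, of the AP-1 factors, fell by 1.16 ± 0.242 (adjusted p = 0.02) by 201465_s_at; each was lower in 9 lines. With the ACTB ratio as a covariate MYC was at -1.06 and not called (adjusted p = 0.0645). JUN was not called without DND41, HPB-ALL or RPMI8402 (adjusted p = 0.0541, 0.0588 and 0.0563). Further probe sets of JUN were at -0.44, -0.19 and -0.02, and none of these passed. The median of the list was -0.08.

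Receptors, ligands and glycosylation genes had 1 of 11 probe sets lower, that of the receptor NOTCH3, which fell by 1.34 ± 0.235 (limma adjusted p = 0.0104), and a median of 0.14. With the mean of all its probe sets, dim ones included, NOTCH3 was at -0.64 (limma adjusted p = 0.0183). Cleaving proteases had 0 of 11 (2 unadjusted) and a median of 0.11. NOTCH target genes had 4 of 10 lower and a median of -0.55. Beside HES1, the complement receptor gene CR2 fell by 1.95 ± 0.397 (adjusted p = 0.0188), a call lost without HPB-ALL or RPMI8402 (0.0552 and 0.0539). SHQ1, a factor of small nucleolar ribonucleoprotein assembly, fell by 0.76 ± 0.141 by 63009_at (adjusted p = 0.0143). By 219083_at it fell by 0.58 ± 0.155 (adjusted p = 0.0449). That probe set was not called without ALL-SIL, CCRF-CEM, CUTLL1, HPB-ALL, MOLT3, PF382 or RPMI8402 (up to 0.0965). With the ACTB ratio as a covariate 219083_at was not called either (limma adjusted p = 0.127), while 63009_at was (adjusted p = 0.0484). Over all lists the count of 8 was 4 without HPB-ALL, 4 without RPMI8402, 12 without KOPTK1 and 4 with the ACTB ratio as a covariate.

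The genes whose line means ran most like each member's brightest probe set (Pearson's r over 10 lines, the highest 3 of all named genes tested, so high by selection) were GEMIN2, TFR2 and GOLT1B for RBPJ (r = 0.87 to 0.86), RGS2, ADA and CNOT6 for MAML1 (0.94 to 0.92) and BIN3, ILRUN and SMARCD2 for SPEN (0.91 to 0.90). ZNF75D, TRMO and ENC1 were nearest to EP300 (0.90 to 0.89), PTPN2, RBMX2 and LGALS8 to CREBBP (0.91 to 0.89) and NMT2, ATG12 and RCC1L to KAT2B (0.95 to 0.94). For FBXW7 they were DHRS12, MYL11 and NCR2 (0.96 to 0.91), and for ITCH GPRASP1, EIF1 and IGSF1 (0.94 to 0.88).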

How the data were processed

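RNA of 10 T-ALL lines was measured on 20 Affymetrix arrays. Per the submitters' processing notes, the authors computed MAS5 signals, so the deposited intensities are linear; the program's version is not given here. Trimmed means (2% off either end) were 249.8 to 250.0 on every array, so the authors had scaled them to 1 target, which was kept. Of 22277 probe sets, 62 controls were left out. The annotation gave 1 gene for 19070, several for 1043, and did not list 2164. Tests took the 13329 probe sets at or above a mean log2 level equal to a signal of 32.5, the 40th percentile.

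Two-sided tests used limma 3.58.1 (R 4.3.3) on log2(signal + 16), the line being a fixed block, with a trended prior and Benjamini-Hochberg adjustment at 0.05. The labels name the line of each array, which gives the pairing. The F test took the 9 line coefficients. Differences between probe sets used exact sign-flip tests (1024 patterns, smallest p 0.00195). Alternatives changed the pseudocount, filter, scaling, block, covariate, probe set rule, lines and test. The code was tested on simulated data. Named genes are all members, from each list at most 4 called genes, HES1, NOTCH1, NOTCH3 and MYC, and the 3 genes most alike in line means. Members and lists were chosen with earlier results of these data known. Precision is limited by the number of arrays.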

Additional observations from a re-analysis of the deposited data

Results flagged for a closer look

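By Dixon's gap rule at the 95% level, which compares the gap to the nearest line with the whole range, single lines lay apart in 5 of 42 sets of 10 values (levels in DMSO, levels in CompE and changes of 14 probe sets). The rule flags about 1 in 20 sets of independent, normally distributed values by chance. It was applied on the log2 scale, and the levels below are given as signals. These sets share arrays and so are not independent, and the count of 5 was not tested. FBXW7 stood at a signal of 487 in HPB-ALL in DMSO, where the next line, ALL-SIL, had 187, and at 1321 in HPB-ALL in CompE, where DND41 followed at 409. EP300 by 202221_s_at stood at 658 in HPB-ALL in CompE, with the next line, DND41, at 398. By the same probe set EP300 changed by 1.40 in DND41, with ALL-SIL next at 0.40. RBPJ by 207785_s_at was lowest in ALL-SIL in DMSO, at 463, with P12-ICHIKAWA next at 818.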

How the results depend on the processing

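Of the 597 probe sets called, 46.7% were higher in CompE, and 21.1% of 593 with median centring, which moved the median of all tested probe sets from 0.03 to -0.04. The count was 380 with no filter on dim probe sets and 185 without CCRF-CEM, MOLT3 and P12-ICHIKAWA. Leaving out 1 line gave 96 to 1465 calls: 352 without ALL-SIL, 281 without CUTLL1, 164 without DND41, 96 without HPB-ALL, 1465 without KOPTK1, 319 without MOLT3, 335 without PF382 and 134 without RPMI8402. Without the replicate block of lines limma called 0, with 590 at an unadjusted p under 0.05, and exact sign-flip tests called 0, with 2940. Of the members 1 probe set, that of KAT2B, was called with 1 probe set a gene, with the mean of the probe sets of a gene and with the 60th percentile filter, and 0 to 1 when 1 line was left out. The pathway lists had 0 calls without the block (4 at an unadjusted p under 0.05) and with exact tests (22), 4 with the ACTB ratio as a covariate, 5 without the 3 lines, and 4 to 12 when 1 line was left out. Counts of the line test stayed within 1.5 times in the alternatives run.

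Among the probe sets followed through the alternatives (13 of the members and 9 of the lists and check genes), those whose sign turned had not been called. With median centring, RBPJ 207785_s_at was at -0.065, ITCH 209743_s_at at -0.045 and NOTCH1 at -0.045. Quantile normalization put ITCH 209743_s_at at -0.029, and leaving out the 3 lines at -0.050. With the ACTB ratio as a covariate, RBPJ 211974_x_at was at -0.021, ITCH 217094_s_at at 0.034 and NOTCH1 at -0.12. The mean of its probe sets put SPEN at -0.15. Leaving out 1 line gave -0.036 to 0.044 for RBPJ 207785_s_at, -0.036 to 0.072 for ITCH 209743_s_at, -0.081 to 0.027 for 209744_x_at, -0.11 to 0.010 for 217094_s_at and -0.064 to 0.077 for NOTCH1. Within these ranges the turned values were -0.019, -0.0036, -0.00035 and -0.015 for RBPJ 207785_s_at without ALL-SIL, CCRF-CEM, PF382 and RPMI8402, -0.0019 and -0.023 for ITCH 209743_s_at without CCRF-CEM and MOLT3, and 0.019 for 209744_x_at without RPMI8402. The cause was not tested.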

Other observations

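The members did not share one pattern across lines. By their brightest probe sets all 8 genes were higher in CompE in DND41 and in HPB-ALL, and 3 of 8 in PF382 and 4 in RPMI8402. Over the 13 tested probe sets the median change was 0.34 in DND41, where that of all tested probe sets was 0.05, and 0.21 in HPB-ALL against 0.03. It was -0.05 in CUTLL1 and -0.02 in RPMI8402. HES1 changed by -0.66 in DND41 and by -3.04 in HPB-ALL. These lines were noticed from the values and the difference was not tested.

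Changes of EP300 and KAT2B over the 10 lines had r = 0.74, and those of EP300 and MAML1 r = 0.72; without DND41 they were 0.39 and 0.49. In line means the same pairs had r = 0.13 and 0.11, while MAML1 and ITCH had 0.73, or at least 0.64 with any 1 line left out. EP300 and FBXW7 had 0.70 in line means but -0.22 without HPB-ALL. The points share arrays and their scaling. Against the change of HES1, r of the 13 probe sets ran from -0.37 for ITCH 209743_s_at to 0.57 for EP300 213579_s_at.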
